A study of Mus musculus with 24 samples.

Results

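Genes of the cytosolic ribosomal proteins were followed in liver RNA of WT and Adn-Lpin1-/- mice. A gene was a member if its symbol was Rpl or Rps followed by a number and at most one of the letters a, x, y or l, or was Rpsa, Rplp0, Rplp1 or Rplp2. Of 41388 counted features, 82 had such a symbol, and the 80 that were not annotated as pseudogenes were kept. Pseudogenes with these symbols, Rps4l and Rpl6l, were left out, as were the S6 kinases (Rps6k genes). Of the 80 genes, 76 had more than 1 CPM (normalized to library size) in at least 4 of 20 libraries and could be tested, 42 of the large subunit, 31 of the small subunit and 3 of the stalk.

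Liver was taken from male mice on the C57BL/6J background in 4 groups of 5 mice, with 1 library per mouse and 1 more library per group made from the pooled RNA of its 5 mice. Adn-Lpin1-/- mice, labelled Adipocyte Lpin1 Knockout, carried floxed Lpin1 and a Cre recombinase driven by the adiponectin promoter, which removes the lipid phosphatase lipin 1 from adipocytes and not from liver cells, so Lpin1 counts in liver do not check the labels. WT mice, labelled Wildtype Control, were littermates with both Lpin1 alleles floxed and no Cre, so all 4 groups carried the floxed allele. From 8 weeks of age, mice of each genotype received a low-fat diet (LFD, 10% of kcal from fat) or a high-fat diet (HFD, 60%), and all were fasted for 4 hours before the liver was collected. The labels give 16 weeks of diet and the study's methods 5 weeks.

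The cytosolic ribosome translates nuclear messenger RNAs, and its large and small subunits are assembled in the nucleolus from ribosomal RNA and 1 copy of most of the proteins described here. Messenger RNAs of ribosomal proteins and of several translation factors begin with a run of pyrimidines, the terminal oligopyrimidine (TOP) motif, through which mTORC1 controls their translation. In liver, ribosome production responds to feeding, insulin and amino acids.

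Bases around the start site are shown for some of the genes named in the genotype comparisons below and for Rpl15, named in a diet comparison. Windows were also listed for Rps2, Rpsa, Rps4x and Rps7, named below too, and are not shown. Their longest runs were 6, 5, 4 and 5 bases. The starts listed for Rpl22 had runs of 4 and 5 bases. Each line gives 35 bases before and 20 bases from the start on the sense strand (RefSeq, GRCm38.p6), with the longest run of C and T within 20 bases on either side of the start in capitals. The windows lie at chr9:64173352-64173406 (plus strand) for Rpl4, at chr14:18270967-18271021 (minus) for Rpl15, at chr4:86857348-86857402 (minus) for Rps6, at chr5:107900493-107900547 (plus) for Rpl5, at chr5:115559432-115559486 (plus) for Rplp0, and at chr9:66946051-66946105 (plus) for the first of the starts listed for Rps27l.
Rpl4: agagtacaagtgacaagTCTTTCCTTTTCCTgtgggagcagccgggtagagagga
Rpl15: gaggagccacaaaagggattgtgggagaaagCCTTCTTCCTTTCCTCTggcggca
Rps6: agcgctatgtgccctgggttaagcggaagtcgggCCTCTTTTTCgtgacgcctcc
Rpl5: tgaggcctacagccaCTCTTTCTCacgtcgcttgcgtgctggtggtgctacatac
Rplp0: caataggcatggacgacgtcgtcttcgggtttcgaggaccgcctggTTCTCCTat
Rps27l: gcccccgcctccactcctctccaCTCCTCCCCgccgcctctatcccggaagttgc

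A start window was listed for 56 of the 76 tested genes. A run of at least 8 pyrimidines was found in 29 of the 56 (51.8%), against 19.1% of the other tested genes and 18.4% of all genes in the table. The run was 14 bases long in Rpl4, 17 in Rpl15, 10 in Rps6, 9 in Rpl5 and 7 in Rplp0. Counted from the listed start, it began at -18 in Rpl4, -20 in Rpl5 and -12 in Rps27l, and ended before the start. In Rplp0 it began at 11, after the start. Only in Rpl15 (-4) and Rps6 (-1), among the windows shown, did the run span the listed start. The capitals are therefore the longest run near the start and need not be the TOP motif. The letters CGGAAG, searched on both strands over 300 bases (250 before and 50 after the start), were present in 39 of the 56 (69.6%), in 34.2% of the other tested genes and in 18.8% of all genes, and Rps6 holds them just before its pyrimidine run. Matches of letters describe the windows and are not evidence of binding or of regulation. The median log2 fold change between genotypes, described below, was -0.21 for the 29 genes with a run and -0.20 for the 27 without under the LFD, and -0.29 and -0.27 under the HFD.

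Per kilobase of annotated exon, normalized CPM over the 20 mice had a median of 100.1 across the 76 genes and ranged from 7.94 for Rps15a to 575 for Rplp1. These levels divide by all annotated exon bases of a gene. The counts came from reads that aligned to a single place and a single gene, and 27 of the 76 tested genes shared exon bases with another feature, Rpl23a and Rpl35 over more than 50% of them. Ribosomal protein genes also have many processed copies in the genome, and 55 of the 76 had at least 1 feature named as their pseudogene, so their levels and fold changes are those of the reads that could be placed.

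The other 4 genes had few counts and could not be tested. Rpl10l, a copy expressed in testis, had 0 counts in the 20 mice. Rpl39l reached at most 10 counts in a mouse and Rpl3l, a copy of Rpl3 known from striated muscle, at most 28. Rpl24 reached at most 75 counts, and 47.0% of its exon bases lay in the feature Gm28037.

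Together, the 80 genes took 1.43, 1.33, 1.31, 1.34 and 1.12% of all counted reads in the 5 WT LFD mice and 1.22, 1.12, 1.26, 1.17 and 1.19% in the Adn-Lpin1-/- LFD mice. On the HFD the shares were 1.19, 1.17, 1.15, 1.11 and 1.34% in WT and 0.989, 1.04, 1.06, 1.10 and 1.19% in Adn-Lpin1-/-. Group means were 1.31 ± 0.113% (SD, n = 5), 1.19 ± 0.0532%, 1.19 ± 0.0880% and 1.08 ± 0.0748% in the same order, so WT LFD was highest and Adn-Lpin1-/- HFD lowest, with overlapping ranges in each pair of genotypes. WT LFD mouse 5 lay well below its group and WT HFD mouse 5 well above it. In Adn-Lpin1-/- HFD mice 1, 2 and 3, all 76 tested genes were below their mean over the 20 mice. In liver tissue, fewer cells of a type and less RNA per cell cannot be told apart.

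**Figure D1:**
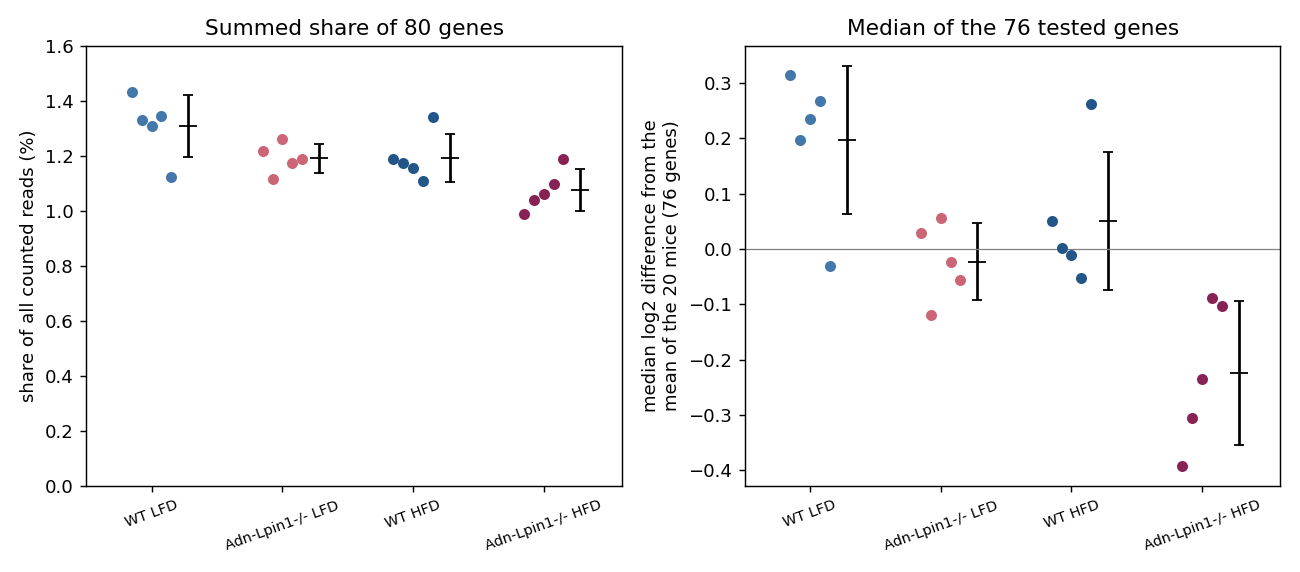
Ribosomal protein genes by mouse. The left panel gives the share of all counted reads on the 80 genes (%) and the right panel the median log2 difference of the 76 tested genes from their mean over the 20 mice. Each point is 1 mouse, and bars are the mean and SD of 5 mice. Shares ran from 0.989% to 1.43%, and the group means were 1.31% in WT LFD and 1.08% in Adn-Lpin1-/- HFD, with 1.19% in the other two groups.

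The 76 genes moved together from mouse to mouse within groups. After group means were removed, the median Pearson r over the 2850 pairs was 0.79 across the 20 mice, and all pairs were positive, whereas the median over pairs of all tested genes was -0.0012, with 49.8% of them positive. Pairs of genes share libraries and are no replicates. Libraries also differed in the slope of log2 expression against exon length, relative to the mean of the 20 mice. In Adn-Lpin1-/- HFD mice 1 to 5 it was 0.064, 0.035, 0.015, -0.0060 and -0.0062 per doubling. The median log2 difference of the 76 genes from their mean was -0.39, -0.30, -0.24, -0.088 and -0.10 in these mice. The part of length in this co-movement was not tested, and this group was picked after its values were seen. Rps27l, a p53-responsive copy of Rps27, followed the others least, with a mean r of 0.39 with them, and was followed by Rps19 (0.50) and Rpl3 (0.53).

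On the LFD, 27 of the 76 genes fell in Adn-Lpin1-/- livers (35.5%, 14 of the large subunit, 12 of the small subunit and 1 of the stalk) and 0 rose, at an adjusted p of 0.05 in edgeR's quasi-likelihood test, while 8.11% of the 13052 genes tested fell and 6.27% rose. The fold change was below 0 for 75 of the 76 genes, against 48.8% of all genes. The median log2 fold change was -0.22, against 0.01 over all genes, with a range from -0.36 for Rps20 to 0.02 for Rps27l and a median SE of 0.08 for a single gene. Groups did not overlap for 6 of the 76 (7.89%), which is near the share of all genes that were lower without overlap (6.21%), and 0 were higher without overlap (3.89% of all genes).

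Among small subunit genes, Rps20 (chr4:3831334-3835665, minus strand, GRCm38) was 120, 114, 121, 130.3 and 100.2 CPM in the 5 WT LFD mice and 94.7, 87.8, 93.2, 92.8 and 88.7 CPM in the Adn-Lpin1-/- LFD mice. Every knockout mouse was below every WT mouse, and the log2 fold change was -0.36 ± 0.08 (SE, adjusted p = 0.00501 in edgeR). Rps2 (chr17:24718116-24721929, plus strand), a protein at the entry channel for messenger RNA, was 522, 537, 521, 531 and 460.1 CPM in WT LFD and 441, 376, 424, 383 and 427 CPM in Adn-Lpin1-/- LFD. These groups did not overlap either, at a log2 fold change of -0.33 ± 0.07 (adjusted p = 0.00424). Rps14, lost in human 5q- syndrome, was 183, 164.5, 166, 156 and 138 CPM in WT LFD and 135, 125, 128, 128 and 128 CPM in Adn-Lpin1-/- LFD, again without overlap (-0.33 ± 0.08, adjusted p = 0.00666).

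In the stalk, which recruits translation factors, Rplp0 was 472, 446, 449, 412 and 383 CPM in WT LFD and 371, 366.5, 362, 360.1 and 342 CPM in Adn-Lpin1-/- LFD. It fell without overlap between the groups, by 0.26 ± 0.06 on the log2 scale (adjusted p = 0.00629). Its partners Rplp1 (-0.21 ± 0.08, adjusted p = 0.0969) and Rplp2 (-0.18 ± 0.07, adjusted p = 0.0700) were not called. In the large subunit, Rpl3 (chr15:80077794-80091868, minus strand), which helps to form the peptidyl transferase centre, was 207, 215, 213, 211 and 199.6 CPM in WT LFD and 174, 159, 192, 177 and 159.6 CPM in Adn-Lpin1-/- LFD. Its groups did not overlap, and the log2 fold change was -0.28 ± 0.07 (adjusted p = 0.00876).

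Over other normalizations, filters, tools and fits with the pools, between 9 and 72 of the genes were called on the LFD. The 72 came from voom with the pools added, a fit that counts RNA of the same mice again. The count was 10, 14, 12, 10 and 49 without WT LFD mouse 1, 2, 3, 4 and 5, and 8, 17 and 14 without Adn-Lpin1-/- LFD mouse 2, 4 and 5, with no gene called higher and 75 or 76 genes below 0 in each of these fits.

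**Figure D2:**
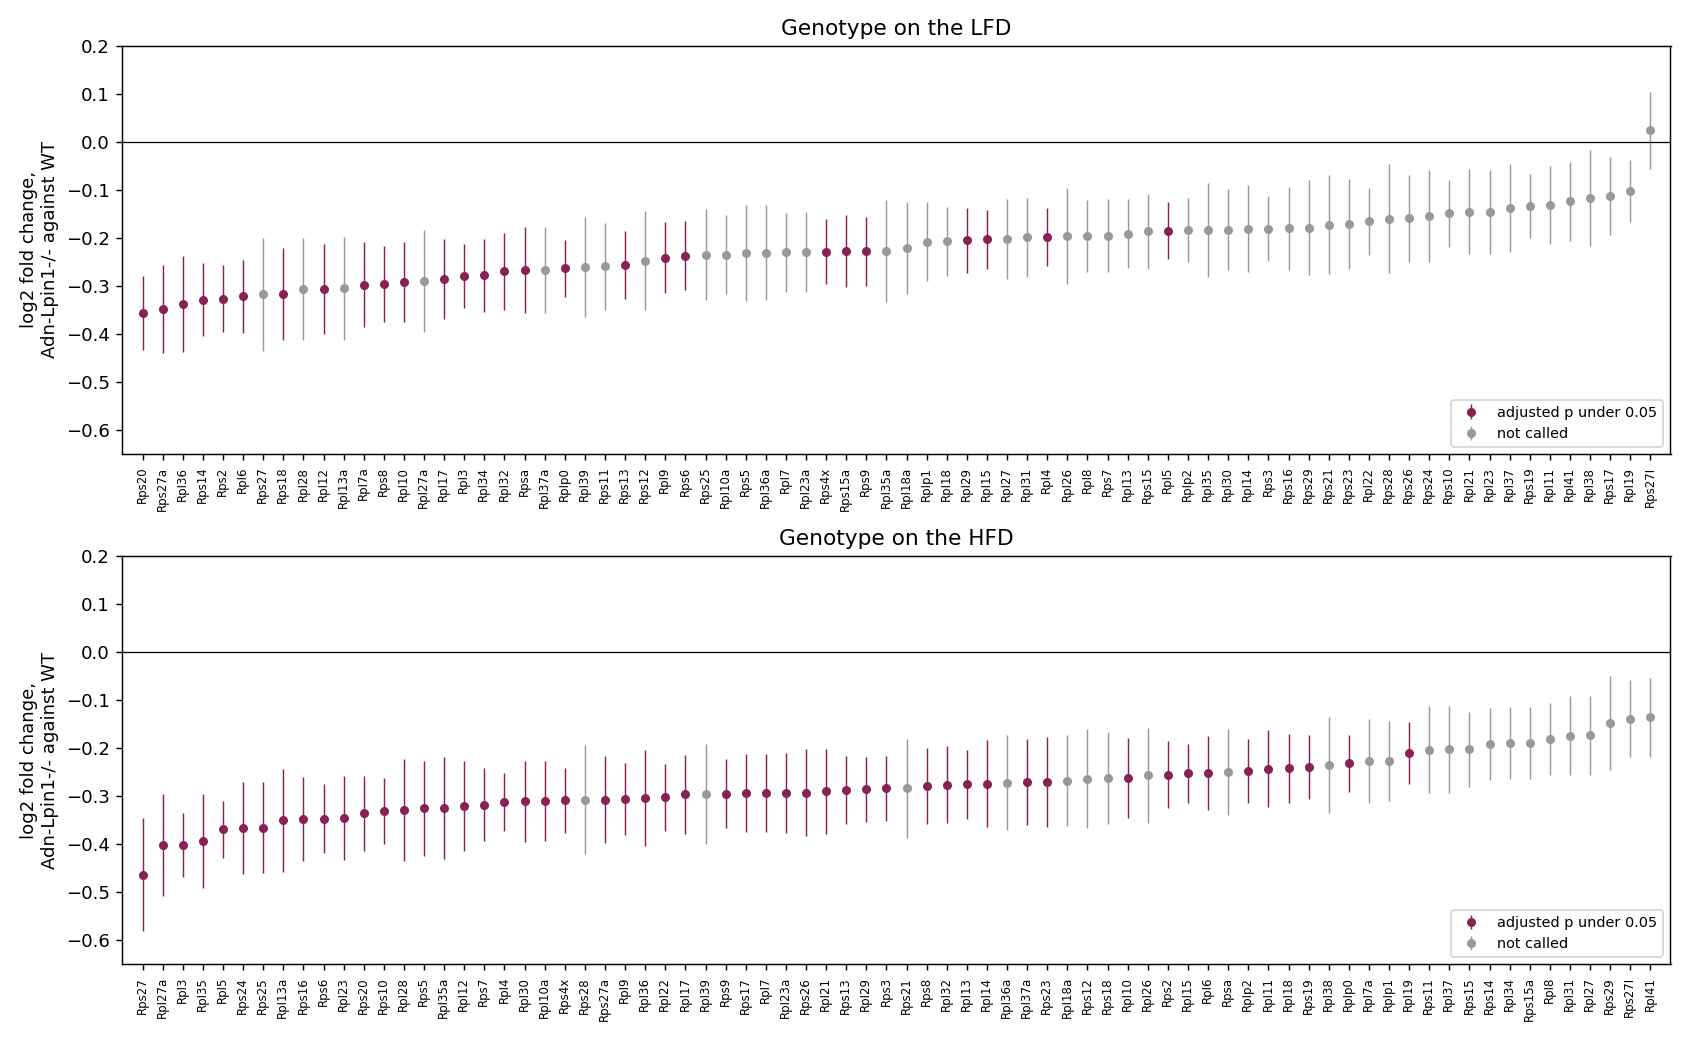
Genotype effect for each of the 76 tested ribosomal protein genes, on the LFD (top) and the HFD (bottom). Points are log2 fold changes of Adn-Lpin1-/- against WT (5 mice each), bars are SE, and genes are ordered by their value within each panel. Dark red marks an adjusted p under 0.05 (27 genes in the upper panel, 52 in the lower), and all points lie below 0 but Rps27l on the LFD.

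On the HFD, 52 of the 76 genes fell in Adn-Lpin1-/- livers (68.4%, 30 of the large subunit, 20 of the small subunit and 2 of the stalk) and 0 rose, while 8.78% of all genes fell and 9.87% rose. All 76 fold changes were below 0, against 49.7% of all genes. The median log2 fold change was -0.28, against 0.00 over all genes, with a range from -0.46 for Rps27 to -0.14 for Rpl41. Groups did not overlap for 29 genes (38.2%), against 5.6% of all genes that were lower without overlap, and 0 were higher without overlap (5.78% of all genes). An unadjusted p under 0.05 was found for 73 of the 76 and for 33.2% of all genes.

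Rpl5, which carries 5S ribosomal RNA into the large subunit, was 160.1, 158, 165, 160.1 and 175 CPM in WT HFD and 119.9, 122, 123, 131 and 137 CPM in Adn-Lpin1-/- HFD. All knockout mice were below all WT mice, with a log2 fold change of -0.37 ± 0.06 (SE, adjusted p = 0.000452), and 26.7% of the exon bases of Rpl5 were shared with Fam69a or Snord21. Rpl3 was 197, 180.4, 171, 168 and 197 CPM in WT HFD and 139, 133, 127, 138 and 154 CPM in Adn-Lpin1-/- HFD, also without overlap (-0.40 ± 0.07, adjusted p = 0.000580), which is a change of -24.3%. Rpl4, a large subunit protein at the exit tunnel, was 414, 416.5, 419, 411 and 476 CPM in WT HFD and 326, 326, 345, 362.5 and 362 CPM in Adn-Lpin1-/- HFD, and it fell by 0.31 ± 0.06 on the log2 scale (adjusted p = 0.00214) with the WT HFD mouse 5 value far above the other four. Rps6, the small subunit protein that S6 kinases phosphorylate, was 173, 183, 182, 169.9 and 203 CPM in WT HFD and 135, 139, 135, 156 and 151 CPM in Adn-Lpin1-/- HFD. Its groups did not overlap, at a log2 fold change of -0.35 ± 0.07 (adjusted p = 0.00334).

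In the stalk, Rplp0 was 286.5, 297, 314, 303 and 331 CPM in the knockout livers under the HFD, below the lowest WT value of 349 CPM. Rplp0 (-0.23 ± 0.06, adjusted p = 0.0121) and Rplp2 (-0.25 ± 0.07, adjusted p = 0.0152) fell on the HFD, and Rplp1 (-0.23 ± 0.08, adjusted p = 0.0597) had no overlap between groups without passing the threshold. Between 35 and 75 of the genes were called on the HFD over other normalizations, filters, tools and fits with the pools. The 75 came from voom with the pools added, which counts RNA of the same mice again. The count was 30 without Adn-Lpin1-/- HFD mouse 1 and also 30 without mouse 2, the mice with the smallest shares of ribosomal protein reads.

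**Figure D3:**
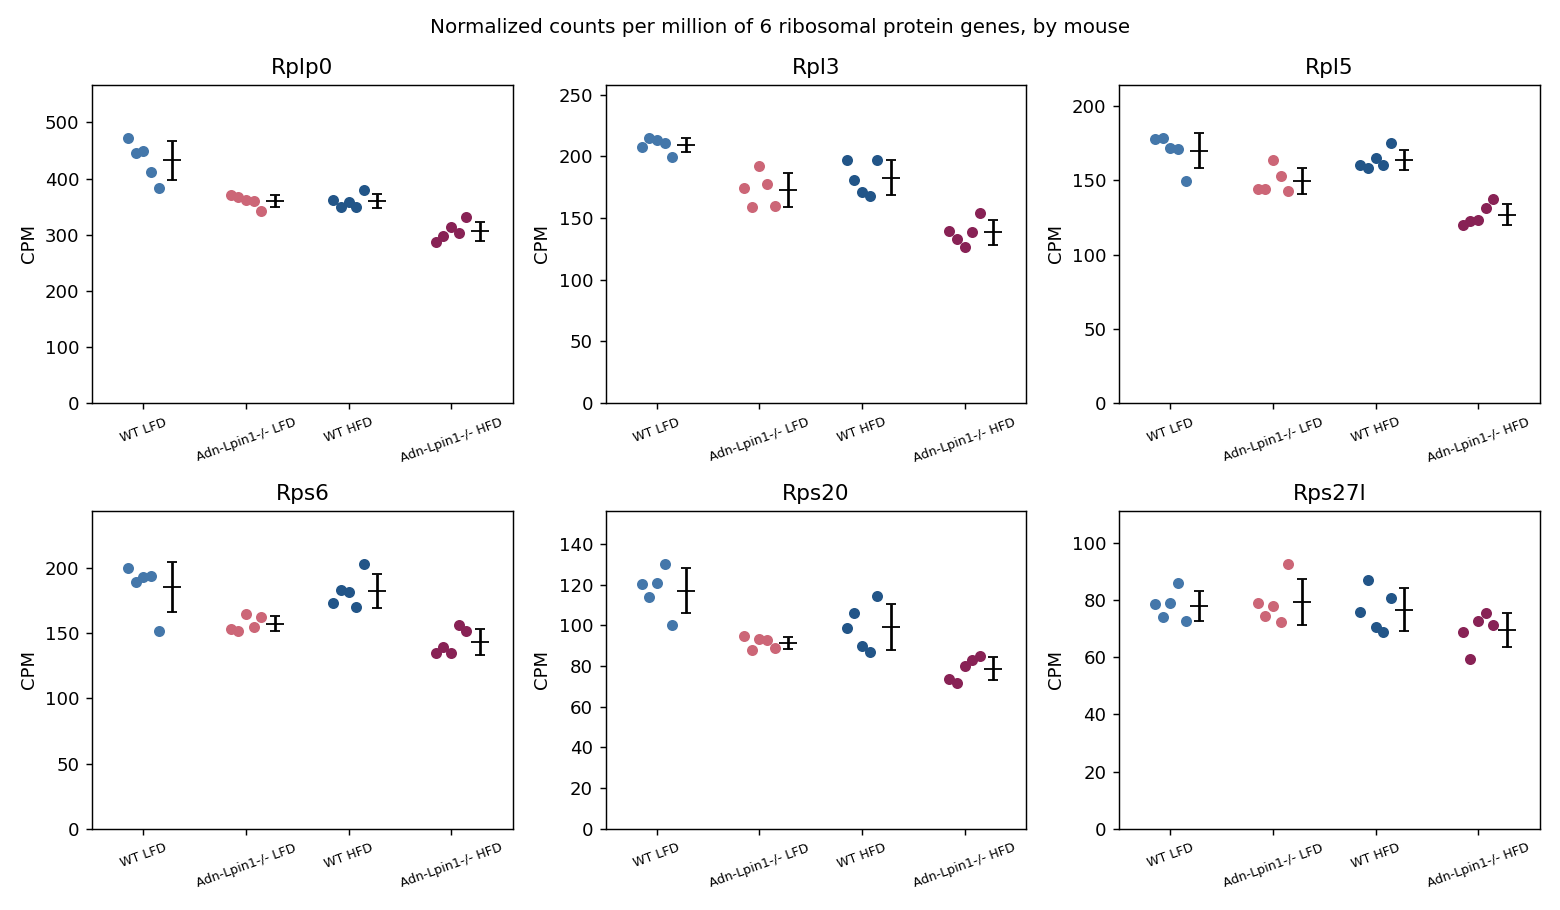
Normalized CPM of Rplp0, Rpl3, Rpl5, Rps6, Rps20 and Rps27l in each mouse (points) with the mean and SD of 5 mice per group. Rplp0, Rpl3 and Rps20 were lower in every Adn-Lpin1-/- mouse than in every WT mouse on each diet, Rpl5 and Rps6 on the HFD alone, and Rps27l overlapped on both diets.

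Some members have roles outside the ribosome, and they did not all pass the test on both diets. Rpl11, which with Rpl5 and 5S RNA binds the p53 regulator Mdm2, was 184 ± 15.0 CPM (SD, n = 5) in WT HFD livers against 156 ± 17.2 in knockouts, and it fell on the HFD (-0.24 ± 0.08, adjusted p = 0.0407 in edgeR, called in 26 of 36 alternatives, with an adjusted p of 0.112 without Adn-Lpin1-/- HFD mouse 1) with overlapping groups and was not called on the LFD (-0.13 ± 0.08, adjusted p = 0.295). Rpl5 passed on the LFD as well, with overlap (-0.19 ± 0.06, adjusted p = 0.0430), in the fit reported and in 17 of 36 alternative fits. Rps6 passed on the LFD (-0.24 ± 0.07, adjusted p = 0.0328) in 25 of 36 alternatives, with WT LFD mouse 5 at 151 CPM and the other four WT mice from 189 to 199.8 CPM.

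Rpsa, which is also the precursor of the laminin receptor, was at the threshold on the LFD (-0.27 ± 0.09, adjusted p = 0.0499, called in 14 of 36 alternatives) and not called on the HFD (-0.25 ± 0.09, adjusted p = 0.0554). Rpl10, an X-linked gene of a late step in large subunit assembly, fell under both the LFD (-0.29 ± 0.08, adjusted p = 0.0248) and the HFD (-0.26 ± 0.08, adjusted p = 0.0354), with overlapping groups on both, in 29 and 24 of 36 alternatives. Rpl22, known for its role in lymphocyte development, fell on the HFD (-0.30 ± 0.07, adjusted p = 0.00653) without overlap and was not called on the LFD (-0.17 ± 0.07, adjusted p = 0.121).

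Rps27l was the single gene above 0 on the LFD. It was 78.5, 74.0, 79.1, 85.9 and 72.7 CPM in WT LFD and 79.0, 74.5, 77.9, 72.5 and 92.8 CPM in Adn-Lpin1-/- LFD. The groups overlapped almost fully (0.02 ± 0.08, adjusted p = 0.881), and the sign was negative without Adn-Lpin1-/- LFD mouse 5 (-0.04), whose value was the highest of its group, and without WT LFD mouse 5 (-0.0012). On the HFD it was 76.6 ± 7.5 CPM in WT and 69.6 ± 6.12 CPM in Adn-Lpin1-/- (-0.14 ± 0.08, adjusted p = 0.237).

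The genotype effect was called on both diets for 21 genes, on the LFD alone for 6, on the HFD alone for 31 and on neither for 18. Groups failed to overlap on both diets for 4 genes, Rplp0, Rpl3, Rps20 and Rps4x. The value was more negative on the HFD for 57 of the 76. These sides of the threshold are not a difference between the diets: the difference of the genotype effects was called for 0 genes, members or others, in edgeR's test, with an unadjusted p under 0.05 for 1 of the 76 (1.32%, Rpl5, -0.18 ± 0.08, adjusted p = 0.683 in edgeR) and for 7.19% of all genes. DESeq2's test of the difference called 0 of the 76 too. Over the 76 genes, the fold changes on the LFD and the HFD, which share no mice, had a Pearson r of 0.28 and a Spearman rho of 0.18, given as a description.

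Diet was compared within each genotype, and these comparisons share their mice with those of genotype. In WT mice, 1 gene, Rplp0, fell on the HFD (1.32% of the 76) and 0 rose, while 0.674% of all genes fell and 0.429% rose (1.1% called in all). Groups did not overlap for 2 genes that were lower, Rplp0 and Rpl3 (2.63%, against 2.11% of all genes), and for 0 that were higher (1.62% of all genes). Rplp0 was 362, 349, 359, 349 and 379 CPM in WT HFD, below every WT LFD mouse (-0.27 ± 0.06, adjusted p = 0.0327). The other values ranged from -0.31 to 0.01, with a median of -0.15 against 0.00 over all genes, and 74 of 76 were below 0 (49.4% of all genes), the exceptions being Rps21 (0.01 ± 0.10, adjusted p = 0.975) and Rpl21 (0.00 ± 0.09, adjusted p = 0.990). Next by p were Rps14 (-0.30 ± 0.08, adjusted p = 0.0562), Rpl6 (-0.28 ± 0.08, adjusted p = 0.0739) and Rpl10 (-0.28 ± 0.08, adjusted p = 0.102). The count was 0 without any one of WT LFD mice 1 to 4 or WT HFD mice 1 to 4, 11 without WT LFD mouse 5 and 3 without WT HFD mouse 5.

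In Adn-Lpin1-/- mice, 5 genes fell on the HFD (6.58%) and 0 rose, while 1.26% of all genes fell and 1.2% rose (2.46% called in all). They were Rpl3 (-0.32 ± 0.07, adjusted p = 0.0163), Rps7 (-0.33 ± 0.08, adjusted p = 0.0244), Rpl15 (-0.26 ± 0.06, adjusted p = 0.0315), Rpl5 (-0.24 ± 0.06, adjusted p = 0.0391) and Rplp0 (-0.23 ± 0.06, adjusted p = 0.0404). Rps7 was 116, 116, 125, 116.5 and 118 CPM in Adn-Lpin1-/- LFD and 86.5, 86.2, 97.8, 95.7 and 104 CPM in Adn-Lpin1-/- HFD, with no overlap. Rpl15 was 89.2, 84.7, 93.2, 86.3 and 80.6 CPM and 68.0, 68.4, 71.3, 78.2 and 77.4 CPM in the same groups, also with none. All 76 values were below 0, against 47.6% of all genes (median -0.20, against 0.01), and 19 genes had no overlap (25%), against 2.04% of all genes that were lower without overlap, with 0 higher without overlap (2.02% of all genes). The count was 11 without WT LFD mouse 5, 10 without WT HFD mouse 5, 9 without Adn-Lpin1-/- HFD mouse 4, 3, 3, 0 and 2 without Adn-Lpin1-/- LFD mouse 1, 2, 3 and 4, and 1, 1 and 3 without Adn-Lpin1-/- HFD mouse 1, 2 and 3.

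The libraries of the genotypes differed in how counts depended on GC content, so this was measured beside the genotype effect. The slope of log2 expression against the GC content of the longest transcript, relative to the mean of the 20 mice, averaged -0.00680 (WT) and 0.00818 (Adn-Lpin1-/-) per % GC under the LFD, and -0.00885 (WT) and 0.00747 (Adn-Lpin1-/-) under the HFD. All mice of one genotype lay on one side of 0 and all mice of the other on the opposite side, and the exact permutation test over mice gave p = 0.00794 (two-sided, n = 5 against 5, the smallest it can give, adjusted p = 0.0159 over 4 comparisons) on each diet. Diet gave p = 0.5 in WT and p = 0.841 in Adn-Lpin1-/- (exact permutation test).

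The ribosomal protein genes did not follow this trend. Their median GC content was 51.0% (from 39.1 to 62.4%), against 49.7% over all tested genes, and the trend over all genes at their GC contents had a median of 0.04 on both diets, opposite in sign to their own medians of -0.22 and -0.28. On the LFD 75 of the 76 genes lay below the trend, and on the HFD all 76 did. Across the 76 genes, Pearson r between fold change and GC content was -0.03 (LFD) and 0.17 (HFD). With the GC trend of each library removed, 35 genes (LFD) and 58 genes (HFD) were called lower, of which 21 and 43 were also called without the removal, and 0 were called higher. Against expression level, the trend over all genes at the levels of the 76 was -0.07 on both diets, and 75 and 76 of them lay below it. The 76 genes had a median log2 exon length of 10.5, against 11.8 over all tested genes. Against exon length, the trend at the lengths of the 76 was 0.01 (LFD) and -0.02 (HFD), and 75 and 76 of them lay below it.

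**Figure D4:**
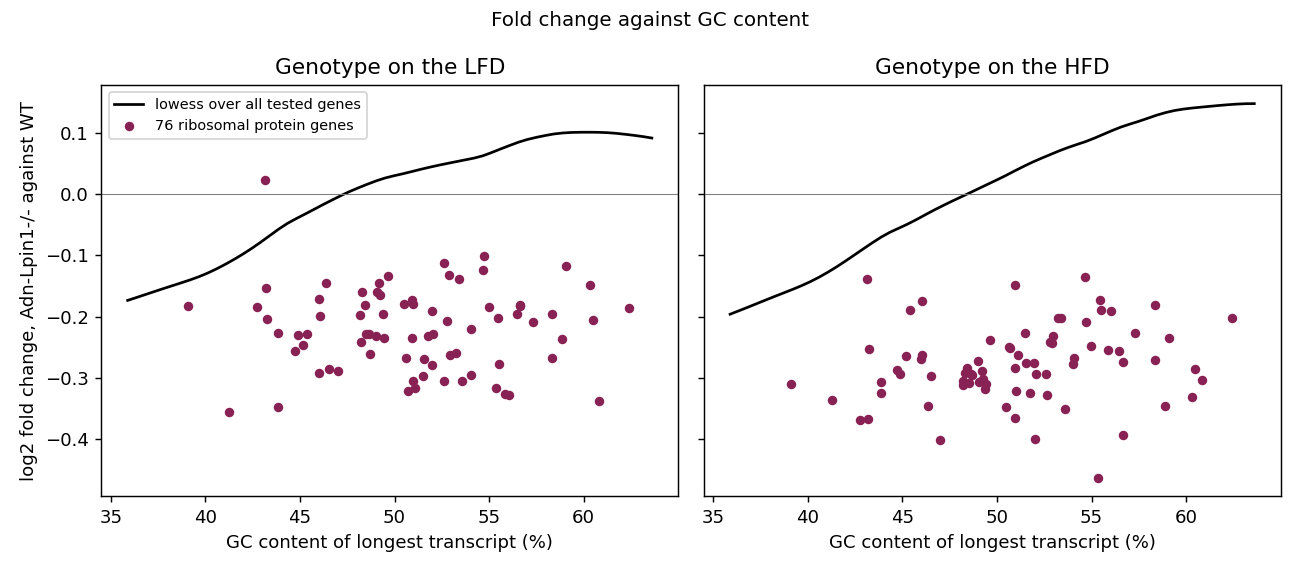
Log2 fold change of Adn-Lpin1-/- against WT by GC content of the longest transcript (%), on the LFD (left) and the HFD (right). Points are the 76 ribosomal protein genes, and the line is a lowess fit over all tested genes. The line rises with GC content, and 75 points (left) and 76 points (right) lie below it.

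Neighbouring genes of the ribosome and of translation were counted in the same fits. The counts of this and the following lists stand beside the shares over all tested genes. On the LFD 8.11% of all tested genes fell and 6.27% rose, and on the HFD 8.78% fell and 9.87% rose. Of 7 ribosomal proteins or ribosome-bound proteins whose symbols fall outside the rule, 3 fell on the LFD and 5 on the HFD. Rack1, the scaffold on the small subunit, fell on both diets (-0.28 ± 0.07, adjusted p = 0.00904 with the LFD, and -0.20 ± 0.07, adjusted p = 0.0415 with the HFD). Rpl22l1, a copy of Rpl22, fell by 0.65 ± 0.16 on the log2 scale with the LFD (adjusted p = 0.0101) and by 0.74 ± 0.16 with the HFD (adjusted p = 0.00417). On the HFD, Rps3a1 (-0.36 ± 0.08) and Fau (-0.33 ± 0.07), the source of small subunit protein S30, were called too.

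Translation elongation and initiation factors with TOP messenger RNAs were called lower in 4 (LFD) and 11 (HFD) of 17, with 0 called higher, and all 17 values were below 0 on each diet (medians -0.14 and -0.23). Eef1a1, the elongation factor that brings aminoacyl-tRNA to the ribosome, was 2969 ± 99.5 CPM (SD, n = 5) in WT livers under the HFD and 2433 ± 52.9 CPM in knockouts (-0.29 ± 0.06, adjusted p = 0.00281). Eef2, which moves the ribosome along, fell on the LFD (-0.24 ± 0.07, adjusted p = 0.0320, called in 29 of 36 alternatives), and Eif4b, a helper of the eIF4A helicase, fell on the LFD (-0.23 ± 0.06, adjusted p = 0.0116) and the HFD (-0.44 ± 0.06, adjusted p = 7.80e-05). Of 21 other initiation factors, 1 rose and 0 fell on the LFD and 2 rose and 1 fell on the HFD, with medians of -0.01 and -0.09. Eif4a2 rose on both diets (0.42 ± 0.06 and 0.33 ± 0.06) and Eif4g3 on the HFD (0.47 ± 0.10).

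Genes that make ribosomal RNA and assemble subunits were counted next. Of 15 genes of RNA polymerase I, 0 were called on the LFD and 3 fell on the HFD, among them Twistnb (-0.42 ± 0.08) and Polr1d (-0.28 ± 0.07). Of 47 assembly factors, 3 rose and 0 fell on the LFD (Ltv1, 0.27 ± 0.08, and Bysl, 0.31 ± 0.09, among them), and 1 rose and 10 fell on the HFD (Npm1, -0.33 ± 0.07, and Wdr43, -0.40 ± 0.10, among them), with medians of 0.00 and -0.15. Ltv1 was called in 25 of 36 alternatives, with a value of 0.06 (adjusted p = 0.641 in limma) with voom and pools, and Bysl in 24 of 36. The difference between the diets was called for 0 genes of either list. Of 76 mitochondrial ribosomal protein genes, 2 rose and 3 fell on the LFD and 0 rose and 10 fell on the HFD, with medians of -0.02 and -0.09, and Mrpl9 fell on both (-0.22 ± 0.05 and -0.23 ± 0.05), while Mrpl16 rose on the LFD (0.28 ± 0.07). Over all tested genes, 14.4% (LFD) and 18.6% (HFD) were called. Counted in both directions, the mitochondrial calls were below these shares, and those of RNA polymerase I were below (LFD) or near them (HFD). On the HFD both lists had calls in the lower direction alone, above the 8.78% of all tested genes that fell. Values there were below 0 for 61 of 76 mitochondrial and 13 of 15 RNA polymerase I genes, against 49.7% of all genes.

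Of 21 genes of mTORC1 and of TOP regulation, 0 rose and 3 fell on the LFD and 1 rose and 2 fell on the HFD. Rps6kb1, the S6 kinase 1 gene, fell (-0.21 ± 0.06 and -0.20 ± 0.06) but had adjusted p up to 0.830 on the LFD and 0.742 on the HFD in fits with the GC trend removed. Larp4, which binds poly(A) tails and stabilizes messenger RNAs, fell on both diets (-0.36 ± 0.10 and -0.72 ± 0.10), on the LFD in 28 of 36 alternatives, with a value of -0.19 (adjusted p = 0.231 in edgeR) with the GC trend removed beside a block on mouse number. Of 6 small nucleolar RNA host genes with TOP starts 0 were called on either diet. All 6 values were below 0 on each diet, with medians of -0.12 (LFD) and -0.29 (HFD) and a median SE of 0.14. An unadjusted p under 0.05 in edgeR was found for 1 of them (LFD) and 5 (HFD), against 28.9% and 33.2% of all genes. In the list of ribosome quality control and the p53 response, 2 of 14 rose and 2 fell on the LFD and 3 rose and 2 fell on the HFD. Ltn1, a ligase for stalled chains (-0.56 ± 0.08 on the HFD), and Hbs1l, a ribosome rescue factor (-0.26 ± 0.05 and -0.31 ± 0.05), fell, and Cdkn1a, a p53 target, rose on the LFD (2.35 ± 0.48, adjusted p = 0.00301).

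Of 74 tested features named as ribosomal protein pseudogenes, 0 were called on the LFD (median -0.03), and 7 of 74 fell on the HFD (median -0.28), among them Rpl3-ps2 (-0.74 ± 0.20) and Rpl38-ps2 (-0.46 ± 0.13, called in 33 of 36 alternatives and at -0.21 with voom and pools). Their reads cannot always be told apart from those of the parent genes.

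**Figure D5:**
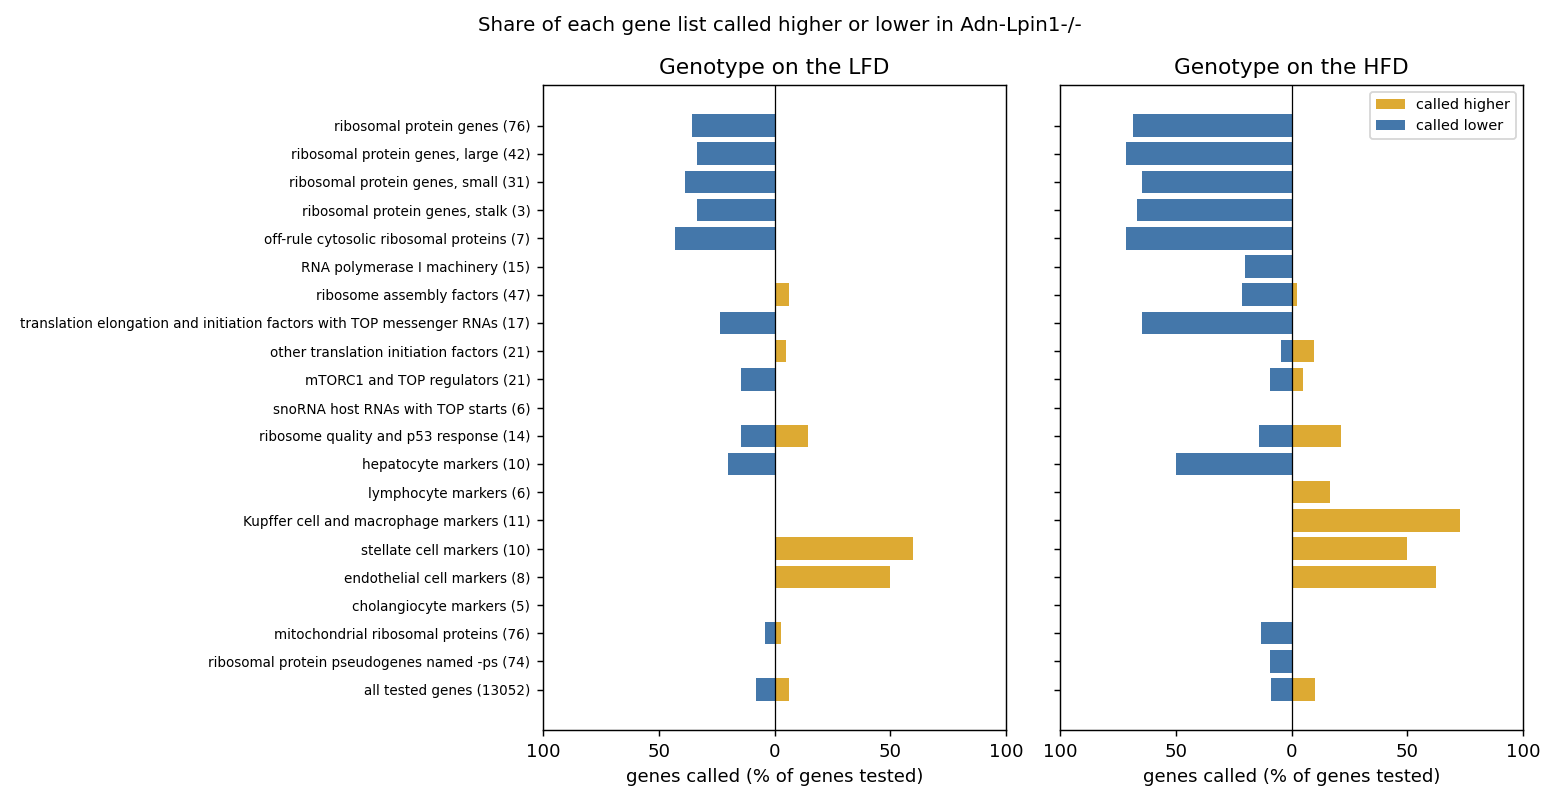
Share of each gene list called lower (blue, to the left) or higher (yellow, to the right) in Adn-Lpin1-/- against WT, on the LFD and the HFD, in % of the genes tested (number in parentheses). Ribosomal protein genes had calls to the left alone, as had off-rule ribosomal proteins, TOP translation factors, RNA polymerase I genes, pseudogenes and hepatocyte markers where any were called, and the bottom bar shows all 13052 tested genes.

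Of the hepatocyte markers, all 10 were detected, and their summed level ran from 113454 to 119712 CPM (WT) and 81284 to 111065 CPM (Adn-Lpin1-/-) under the LFD, without overlap, and from 100681 to 130424 CPM (WT) and 84902 to 114377 CPM (Adn-Lpin1-/-) under the HFD, with overlap. On the LFD 2 of 10 fell (Asgr1, -0.27 ± 0.06, and Serpina1a, -0.49 ± 0.14) and on the HFD 5 of 10 (Apoa1, -0.77 ± 0.16, and Alb, -0.34 ± 0.10, among them), and 0 rose. Serpina1a was called in 33 of 36 alternatives and Alb in 30. Values above 0 were those of Ttr on the LFD (0.04 ± 0.09) and of Pck1 on both diets (0.41 ± 0.30 and 0.54 ± 0.30), not called and named after they were seen. The part of these markers in the ribosomal protein result was not tested.

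Among markers of other liver cells, 0 were called lower in Adn-Lpin1-/- on either diet. Of 10 stellate cell markers, 6 rose under the LFD and 5 under the HFD (Col1a1, 2.85 ± 0.64 and 2.27 ± 0.62, the latter in 32 of 36 alternatives), with summed levels from 102 to 203 CPM (WT, LFD), 212 to 480.5 (Adn-Lpin1-/-, LFD), 183 to 266 (WT, HFD) and 220.0 to 517 (Adn-Lpin1-/-, HFD). Endothelial markers rose in 4 and 5 of 8 (Stab1, 0.59 ± 0.10 and 0.75 ± 0.10), from 118 to 187, 170.2 to 283, 134 to 194 and 219.9 to 244 CPM in the same groups. Kupffer cell and macrophage markers were called higher in 0 and 8 of 11 (Csf1r on the HFD, 0.97 ± 0.24), with ranges of 184 to 347, 236 to 465, 227 to 287 and 292 to 673 CPM. Lymphocyte markers were called in 0 and 1 of the 6 tested of 14 (Ptprc on the HFD, 0.63 ± 0.20, in 28 of 36 alternatives), with ranges of 14 to 50.7, 23.4 to 37.7, 13.2 to 17.1 and 15 to 26 CPM. Cholangiocyte markers were called in 0 of the 5 tested of 6 on each diet, with ranges of 22.6 to 50.5, 34.0 to 82.6, 14.3 to 39.1 and 26.1 to 57.8 CPM. No marker of these lists was at 0 in every library, and whether these cells took part in the ribosomal protein result was not tested.

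Depth also moved with genotype, and with diet in WT. Total counts ran from 36260187 to 45999456 (WT) and 51095146 to 61435897 (Adn-Lpin1-/-) under the LFD, without overlap, and from 54036184 to 62249701 (WT) and 57550362 to 81072794 (Adn-Lpin1-/-) under the HFD. WT totals did not overlap between the diets either, so the diet comparison in WT carries a difference in depth too. With all libraries thinned to the smallest total, 22 (LFD) and 50 (HFD) ribosomal protein genes were called lower, and the medians were -0.22 and -0.28.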

How the data were processed

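The authors selected poly-A RNA of liver, aligned the reads to the Ensembl release 76 genome (GRCm38) with STAR 2.5.1a and counted uniquely aligned, unambiguous reads per gene with featureCounts 1.4.6-p5. Strandedness is not given in the sources used here. Per the file headers, each library has raw counts, CPM and RPKM per gene, and the deposited CPM and RPKM were not used for results. The study's methods also exclude ribosomal genes, which was read here as rRNA genes (355 features), though ribosomal protein genes may be meant. The deposited counts hold both kinds and do not settle it.

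Counts of the 20 single-mouse libraries were scaled by TMM and tested with edgeR 4.0.16 (R 4.3.3): genes over 1 CPM in at least 4 libraries, 4 group means in 1 fit, quasi-likelihood test, Benjamini-Hochberg adjustment over the 13052 genes tested, threshold 0.05. The SE is the log2 fold change divided by the root of the F statistic. The test was tried first on simulated data. Pools repeat the RNA of the same mice and were left out. The labels number the mice of a group, and nothing says that numbers are shared between groups. Symbols (40340 of 41388 IDs), GC content and coordinates came from GENCODE M21 on GRCm38, and start windows from RefSeq GRCm38.p6. Trends were lowess fits with a span of 0.3, and log2 CPM had a prior count of 2.

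Ribosomal protein genes, gene lists and tests were chosen with earlier results of these data known. Named were, for each comparison of 2 groups, the 4 genes with the smallest p in each direction, Rplp0, Rplp1, Rplp2, Rpsa, Rps6, Rpl3, Rpl10, Rpl5, Rpl11, Rpl22 and the tissue-restricted or like copies in every comparison, and from each list the 2 called genes with the smallest p in each genotype comparison. Rps4x, Rps15a, Rps19, Rps27, Rpl41, Rpl23a, Rpl35 and Rpl24 were named after their values were seen. The alternatives were DESeq2 1.42.0 (its size factors and its Wald test), upper quartile scaling, TMM without ribosomal protein genes, voom with quality weights (limma 3.58.1), pools as sixth libraries, 2-group fits, other limits on low counts, the replicate number as a block, GC and length trends removed, thinned counts, and each mouse left out. Python 3.11.15 was used for summaries and exact tests.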

Additional observations from a re-analysis of the deposited data

Results flagged for a closer look

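Over 84 sets of 5 mice, for 20 ribosomal protein genes and for the summed share of reads in each of the 4 groups, 10 had a mouse far from the other four by Dixon's criterion, of which chance flags about 1 in 20 groups. In WT LFD, mouse 5 was low for 7 genes: Rpl11 at 164 CPM (next 194), Rpl4 at 395 (next 450.3), Rpl5 at 149.7 (next 171), Rplp2 at 121 (next 137), Rps2 at 460.1 (next 521), Rps6 at 151 (next 189) and Rpsa at 378 (next 459.6). In WT HFD, mouse 5 was high for Rpl4 at 476 CPM (next 419) and Rps21 at 129.7 (next 96.4). In Adn-Lpin1-/- LFD, mouse 3 was high for Rps7 at 125 CPM (next 118). These genes move together within mice, so the 7 values of WT LFD mouse 5 are not separate observations. Counts without WT LFD mouse 5 stand above beside the genotype comparison on the LFD and both diet comparisons. Those without WT HFD mouse 5 stand beside both diet comparisons, and that without Adn-Lpin1-/- LFD mouse 3 beside diet in Adn-Lpin1-/-.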

How the results depend on the processing

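No ribosomal protein gene was called higher in any of the 5 comparisons under any of the 36 alternatives (35 for the difference between the diets), and the medians kept their sign. On the LFD the 27 calls became 9 with upper quartile scaling, 51 with voom, 72 with voom and pools, 51 with pools in edgeR, 10 without a limit on low counts and 13 with the replicate block, and between 8 and 49 with 1 mouse left out. On the HFD the 52 calls stayed within 1.5 times except without Adn-Lpin1-/- HFD mouse 1 or 2, with a range of 30 to 65 with 1 mouse left out. Diet in WT (1 call) gave 4 with DESeq2's Wald test, 25 with voom, 35 with voom and pools, 7 with pools, 2 with the length trend removed, 2 with GC and length trends removed, and 0 with 2 groups, with no limit, with the replicate block and with the block and GC removal, and between 0 and 11 with 1 mouse left out. Diet in Adn-Lpin1-/- (5 calls) gave 15 with DESeq2's Wald test, 63 with voom and pools, 33 with pools, 1 with 2 groups, 2 with no limit, 1 with the replicate block, 1 with the block and GC removal, 8 with GC removed, 9 with GC and length removed, 8 with thinned counts, and between 0 and 11 with 1 mouse left out. The difference between the diets gave 0 throughout. Over all genes, 14.4% (LFD) and 18.6% (HFD) were called for genotype, against 31.8 and 36.3% with voom and pools, 22.97 and 28.8% with pools and 4.87 and 6.53% without a limit on low counts. The pools add no mice, so fits with them understate the spread. The cause of the other moves was not tested.

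The replicate block left 13 (LFD) and 40 (HFD) genes called for genotype, 0 and 1 for diet in WT and in Adn-Lpin1-/-, and 22 and 49 for genotype with the GC trend removed as well. Deviations of same-numbered mice had a median r of -0.0022 (from -0.41 to 0.33 over 30 pairs, 7 of them over 0.1). Pairs with other numbers had a median r of -0.0043 (from -0.42 to 0.47 over 120 pairs, 36 of them over 0.1). The labels do not say whether mice of the same number shared a litter, cage or batch, and these values cannot settle it.

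Shares of reads were 1.41, 1.29, 1.29 and 1.16% without rRNA and mitochondrial counts in WT LFD, Adn-Lpin1-/- LFD, WT HFD and Adn-Lpin1-/- HFD. With the off-rule proteins they were 1.38, 1.26, 1.26 and 1.14% in the same order. Values near 0 changed sign for these genes. Rps27l for genotype on the LFD was -0.018 with voom, -0.0093 with voom and pools, and from -0.038 to 0.060 with 1 mouse left out, and on the HFD 0.050 with GC and length removed. For diet in WT, Rps27l was from -0.078 to 0.012 with 1 mouse left out. Rps6 was 0.0020 with GC removed, 0.011 with GC and length removed and from -0.090 to 0.0033 with 1 mouse left out, and Rpl22 from -0.089 to 0.00039. Rps21 was -0.079 with voom, -0.040 with voom and pools, -0.0024 with the block and GC removal, and from -0.11 to 0.056 with 1 mouse left out. Rpl21 was -0.052 with voom, -0.0021 with the block, -0.018 with the block and GC removal, -0.013 with GC removed, -0.00057 with length removed, -0.020 with both removed, -0.0089 with thinned counts, and from -0.068 to 0.048 with 1 mouse left out.

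Counts of unique reads leave out reads shared with pseudogenes, and a p over 5 mice a group measures the spread between these mice alone.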
